A study of Homo sapiens with 4 samples.

Results

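The genes of cholesterol and fatty acid synthesis were examined in the human pre-B cell line Nalm-6, with and without disruption of subunits of the INO80 chromatin remodeling complex. The list holds 31 genes, chosen by name for their place in the pathway. Probes were assigned to them through the transcript accession that each probe carries. Of the 31 members, 30 had a probe that was well above background on all 4 arrays, of 12969 genes in all for which this was so. The level of ACLY, the enzyme that makes cytosolic acetyl-CoA from citrate, was not analysed here, but its promoter was searched. The members were chosen with earlier results of these data known.

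Arp5 and Arp8 are actin-related proteins of the INO80 complex, and the study asked how transcription differs in cells that lack either of them. Total RNA was hybridized to single-color arrays, with 1 array for each of 4 groups: wild-type (WT) cells, Arp5 knockout (KO) cells, Arp8 KO cells, and cells labelled Arp8 overexpression (OE). Both alleles of ARP5 had been disrupted by homologous recombination, and the Arp5 KO cells are 1 line. The ARP8 locus had been disrupted in the same way, and the overexpression of Arp8 is described as coming from a Tet-Off system placed in Arp8 KO cells. The cells of these arrays had not been given hemin. With 1 array per group no difference has a replicate check, no p-value is given, and genotype, culture, clone and place on the slide cannot be told apart.

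Cholesterol is built from acetyl-CoA through mevalonate and squalene, and the genes of this route are switched on together by the transcription factor SREBP-2, encoded by SREBF2. SREBP precursors are held in the endoplasmic reticulum by SCAP and the INSIG proteins while sterol is plentiful, and when sterol runs low they travel to the Golgi, are cleaved and enter the nucleus. SREBP-1, encoded by SREBF1, acts mainly on the genes of fatty acid synthesis, and dividing lymphoid cells use both routes to make membranes.

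Spots well above background numbered 31188 in WT, 31420 in Arp5 KO, 30394 in Arp8 KO and 30803 for the array labelled Arp8 OE, each of 43376 spots other than controls. All 48 probes of the members were well above background on every array, so that no member value is a bound. Signals are given in scaled units, that is, the processed signal after each array was brought to the 75th percentile of the WT array, which was 1981 units. Ratios are given as log2 ratios or folds of these signals.

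The targeted genes were examined to check the labels. ACTR5, which encodes Arp5, had a scaled signal of 1909 units in WT, 66.3 in Arp5 KO, 1827 in Arp8 KO and 2055 on the array labelled Arp8 OE. It was thus 28.8-fold lower in Arp5 KO than in WT, and close to WT on the other arrays. ACTR8, which encodes Arp8, had 1532 units in WT, 1513 in Arp5 KO, 1126 in Arp8 KO and 1105 on the array labelled Arp8 OE. Its log2 ratio to WT was -0.44 in Arp8 KO and -0.47 on the array labelled Arp8 OE, so that ACTR8 was not higher on the array whose label names its overexpression. The pair of ACTR8 probes gave log2 ratios of -0.71 and -0.23 there, and -0.49 and -0.40 in Arp8 KO. Whether these probes lie in the disrupted part of the gene was not examined, and a probe outside it would check nothing.

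Markers of the cell type were present on all arrays. Of 13 pre-B cell genes, 12 had a matched probe, and all of these were well above background on every array, with the highest signal at the surrogate light chain gene IGLL1. Their summed scaled signal was 333102 units in WT, 347358 in Arp5 KO, 324726 in Arp8 KO and 356596 on the array labelled Arp8 OE. Against WT, 4 of them were past 1.5-fold in some comparison. In Arp5 KO 2 of 12 were lower past it, against 3.32% of all genes, and in Arp8 KO 4, against 5.1%. On the array labelled Arp8 OE 2 were lower, against 4.9%. On each of these arrays 0 were higher past it, against 3.99%, 5.12% and 5.14% of all genes. CD22 had log2 ratios of -0.74 in Arp5 KO, -1.78 in Arp8 KO and -0.66 on the array labelled Arp8 OE. In the same order, VPREB3 had -0.80, -1.20 and 0.04, VPREB1 had -0.13, -0.61 and 0.15, and RAG2 had -0.47, -0.69 and -0.63.

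Markers of other cells were dim. The T cell, erythroid, and hepatocyte and adipocyte genes, all with a matched probe, had 2 of 4, 0 of 2 and 0 of 4 genes well above background on all arrays, and ALB, APOA1, ADIPOQ and PLIN1 did not exceed 5.38 units of unscaled signal. Of the fibroblast and epithelium genes with a matched probe 1 of 3 was above it, KRT18, whose log2 ratio to WT was -0.89 on the array labelled Arp8 OE. Of 5 myeloid genes 4 were well above background on all arrays, MPO being the exception, with a summed signal of 233 units in WT, 220 in Arp5 KO, 357 in Arp8 KO and 332 on the array labelled Arp8 OE. CD14 was the brightest in WT with 119 units. LYZ was at 55.4 units in WT, 47.1 in Arp5 KO, 141 in Arp8 KO and 137 on the array labelled Arp8 OE, and CSF1R and ITGAM were also higher on the latter arrays, with log2 ratios to WT of 0.53 and 0.94 in Arp8 KO, and 1.17 and 0.50 on the array labelled Arp8 OE. The part of these genes in the values of the synthesis genes was not tested.

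Repeated spots of a probe gave a measure of technical error. For probes with at least 500 units, the median SD of a log2 ratio to WT over repeated spots was 0.03 in each comparison, and for 50 to 500 units it was 0.06 for Arp5 KO, 0.07 for Arp8 KO and 0.07 for the array labelled Arp8 OE. Under 50 units it was 0.45, 0.45 and 0.44 in the same order, and CSF1R, ITGAM, KRT18 and ACACB were that dim on some array. Of the members' 48 probes, 8 were under 500 units on some array, the dimmest with 74.3 units. Different probes of a gene, all with at least 500 units, differed more, with a median SD over 2529 genes of 0.09 for Arp5 KO, 0.08 for Arp8 KO and 0.08 for the array labelled Arp8 OE, and a pooled SD, to which wide genes add more, of 0.15, 0.14 and 0.16. Neither measure holds the variation between cultures.

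Most members were somewhat lower in Arp5 KO and on the array labelled Arp8 OE than in WT, whereas in Arp8 KO they lay on both sides of WT. In Arp5 KO over WT, 27 of 30 members were lower by any amount, against 46.3% of all genes, and the median log2 ratio was -0.20 for the members and 0.02 for all genes. With only the brightest probe of each gene the members' median was -0.13. For the array labelled Arp8 OE over WT, 24 of 30 were lower, against 45.2% of all genes, with medians of -0.34 and 0.03. In Arp8 KO over WT, 14 of 30 were lower, against 45.9% of all genes, with medians of 0.01 and 0.03, and the members' median was -0.01 under some other ways of processing. These comparisons share the WT array and are given side by side only.

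No member passed the study's threshold of 2-fold in any comparison. The share of all genes past 2-fold in either direction was 1.95% in Arp5 KO over WT, 2.88% in Arp8 KO over WT and 3.03% for the array labelled Arp8 OE over WT. It was 1.51% in Arp8 KO over the array labelled Arp8 OE and 2.61% in Arp5 KO over Arp8 KO. The nearest to it was FADS2 on the array labelled Arp8 OE, 1.97-fold lower than in WT. There, 2 members were past 2-fold with the table of values that the authors deposited, and 1 each with the percentile taken over bright spots and with normexp background correction.

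At 1.5-fold, 3 of 30 members (10%) were lower in Arp5 KO than in WT, against 3.32% of all genes, and 0 were higher, against 3.99%. The 3 were MSMO1, INSIG1 and FADS2, of which MSMO1 was under 1.5-fold with normexp, at a log2 ratio of -0.52, and FADS2 with its brightest probe, at -0.58. On the array labelled Arp8 OE 7 of 30 (23.3%) were lower than in WT, against 4.9% of all genes: HMGCS1, SQLE, CYP51A1, MSMO1, DHCR7, INSIG1 and FADS2. TM7SF2 alone was higher there, against 5.14% of all genes. In Arp8 KO 0 of 30 were lower than in WT, against 5.1% of all genes, and 1, again TM7SF2, was higher, against 5.12%, which is near the share of all genes.

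**Figure D1:**
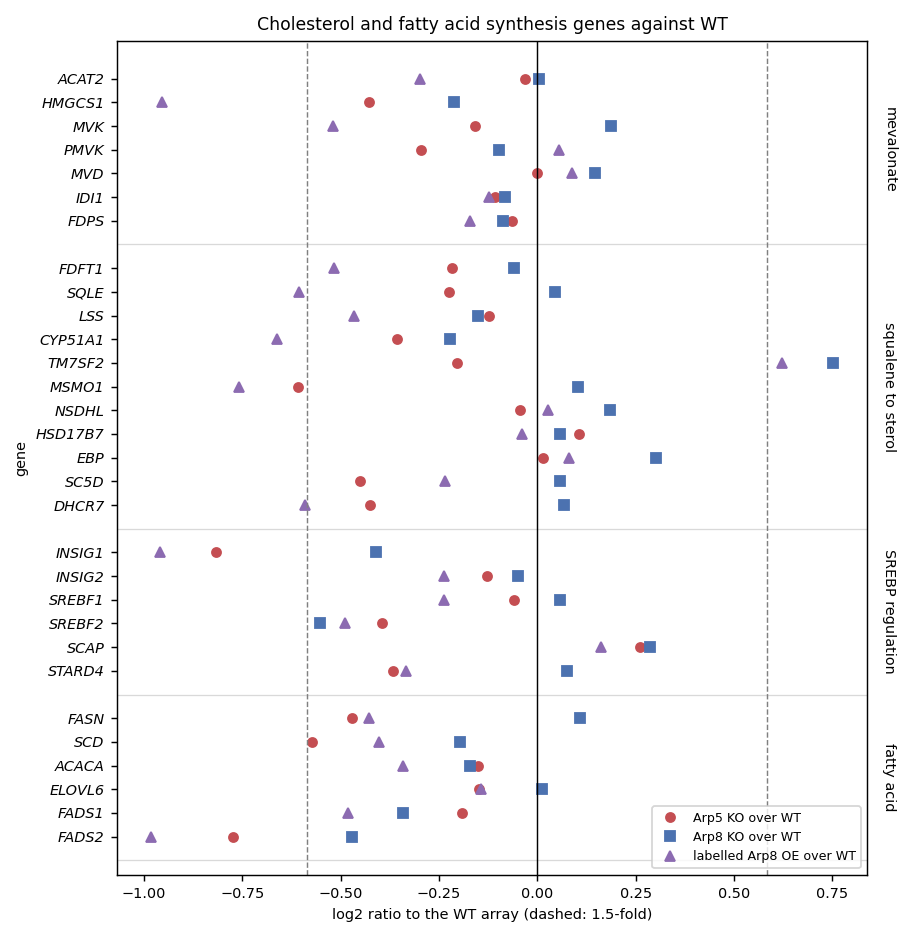
Log2 ratio of each member to WT, in 4 groups by role, for Arp5 KO (circles), Arp8 KO (squares) and the array labelled Arp8 OE (triangles), with 1 array per group and dashed lines at 1.5-fold. Triangles and circles lie mostly left of 0, with medians of -0.34 and -0.20, and TM7SF2 is the gene past 1.5-fold on the right.

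Comparisons without the WT array were also made. In Arp8 KO over the array labelled Arp8 OE, 2 of 30 members were lower by any amount, against 50.1% of all genes, and the median log2 ratio was 0.26, with 0.00 for all genes. Past 1.5-fold, 5 of 30 (16.7%) were higher in Arp8 KO, against 2.98% of all genes, and 0 were lower, against 3.65%. The 5 were HMGCS1, MVK, SQLE, MSMO1 and DHCR7. In Arp5 KO over Arp8 KO, 24 of 30 were lower by any amount, against 50.8% of all genes, with a median of -0.18. Past 1.5-fold, 2 of 30, TM7SF2 and MSMO1, were lower in Arp5 KO, against 3.96% of all genes, and 0 were higher, against 4.65%. Of all calls in this comparison 46.0% were lower, and 58.6% when the arrays were scaled to the median, under which 4 members were lower past 1.5-fold.

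**Figure D2:**
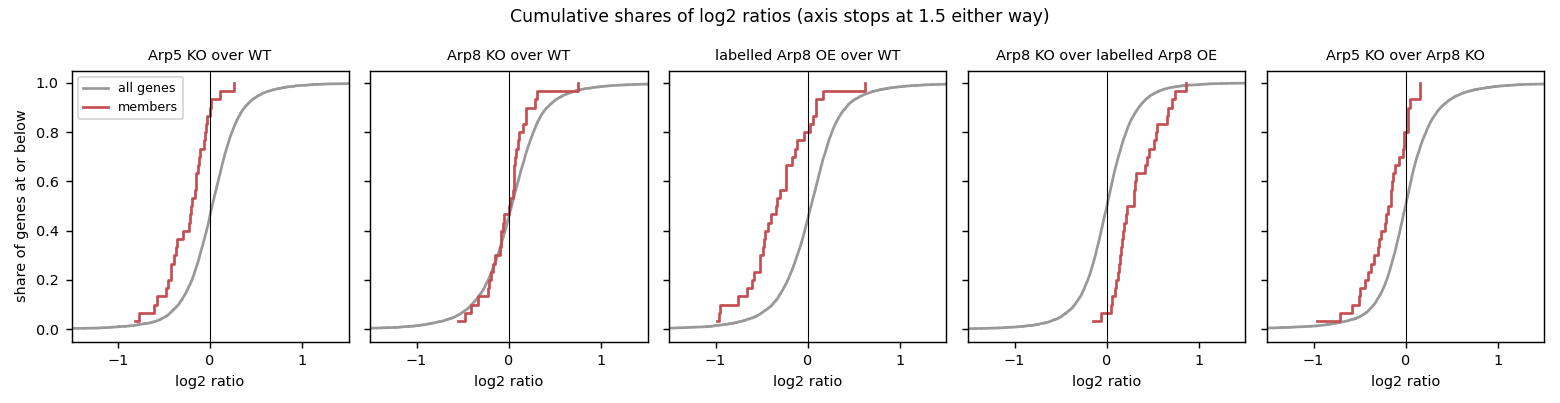
Cumulative share of genes by log2 ratio in 5 comparisons, for the 30 measured members (red) and all 12969 genes (gray). The members' curve lies to the left of that of all genes in Arp5 KO over WT and for the array labelled Arp8 OE over WT, near it in Arp8 KO over WT, and to its right in Arp8 KO over the array labelled Arp8 OE, where the median is 0.26.

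The order of the 4 arrays was counted for each gene. The lowest level was on the array labelled Arp8 OE for 18 of 30 members, against 22.5% of all genes, and on Arp5 KO for 9, also against 22.5%. It was on WT for 2 members, against 31.9%, and on Arp8 KO for 1, against 23.1%. The highest level was on Arp8 KO for 15 members, against 25.7% of all genes, and on WT for 13, against 23.9%. Arp5 KO and the array labelled Arp8 OE each had the highest level of 1 member, against 23.3% and 27% of all genes.

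**Figure D3:**
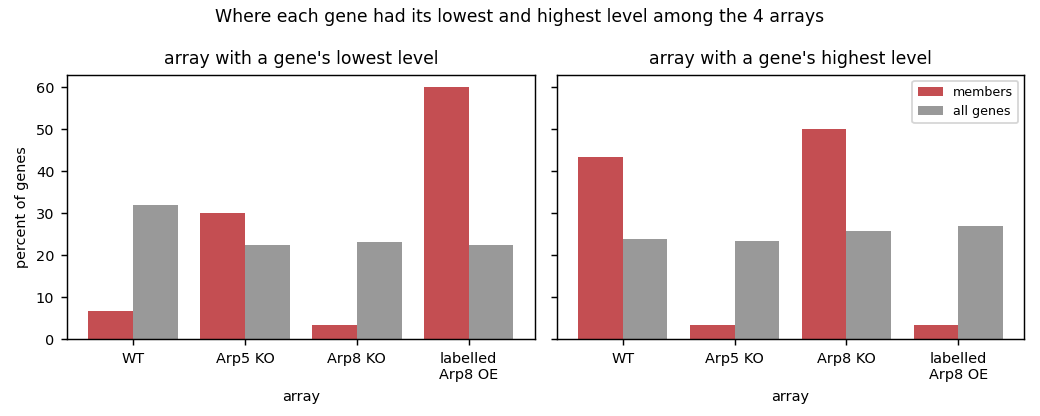
Percent of genes that had their lowest (left) or highest (right) level on each of the 4 arrays, for the 30 measured members (red bars) and for all 12969 genes (gray bars). For the members 60% were lowest on the array labelled Arp8 OE and 50% were highest on Arp8 KO.

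Arp5 KO over WT and Arp8 KO over the array labelled Arp8 OE share no array. Across the 30 members, which are not independent of each other and lie on the same slide, Pearson's r between the log2 ratios of these comparisons was -0.50 and Spearman's rho was -0.53. Across all genes r was 0.16 and rho was 0.09. For the other pair without a shared array, the array labelled Arp8 OE over WT and Arp5 KO over Arp8 KO, r was -0.03 and rho 0.18 across the members, and -0.41 and -0.20 across all genes.

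The sequences before the start sites were searched for motifs, because many members were lower together and SREBP-2 is known to act next to NF-Y, a factor that binds the CCAAT box. RefSeq promoters of assembly GRCh38.p14 were found for 27 of the 31 members, in 37 windows, and the 250 bases before each start were searched on both strands. CCAAT was in 23 of 37 windows (62.2%), against 32.0% of 35116 windows of all genes. At least 2 copies were in 15 windows (40.5%), against 9.53%, and at least 3 in 7 (18.9%), against 2.93%. ACLY, whose level was not analysed, counts here with 2 windows, which overlap and hold the same 2 CCAAT boxes. Windows of some other members overlap too, and those of SC5D hold the same CCAAT box, so that shared sequence counts more than once. The GC box GGGCGG was in 33 windows (89.2%), against 42.6%, and the E box CACGTG in 4 (10.8%), against 6.34%. A form of the sterol regulatory element, TCACNCCAC, was in 1 window (2.7%), that of SREBF2, against 0.883%. No motif contains another. Overlapping matches were counted apart in all genes, so that the letters CCAATTGG, found in NSDHL and in a window of IDI1, count as 2 boxes. The 7 windows with at least 3 CCAAT boxes belong to MVK and NSDHL with 5, MSMO1 with 4, and MVD, IDI1, FDPS and EBP with 3. In that order the log2 ratios of these genes on the array labelled Arp8 OE were -0.52, 0.03, -0.76, 0.09, -0.12, -0.17 and 0.08. Of the members lower past 1.5-fold there, MSMO1 has 4 boxes, HMGCS1 and DHCR7 have 2 in a window and 0 in another, INSIG1 has 1, and CYP51A1 and FADS2 have 0 in all windows, while the promoter of SQLE was not analysed here. Whether the number of boxes goes with the ratio was not tested. A match of letters does not show binding, and a missing match says only that these letters are not in the window.

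The 250 bases before the start are shown for some of the members described below: HMGCS1, MSMO1 and INSIG1, which were among the lowest on the array labelled Arp8 OE, TM7SF2, which was higher there, and SREBF2, which holds the sterol regulatory element. Capitals mark CCAAT or its complement ATTGG, and in SREBF2 also the sterol regulatory element. They lie at chr5:43313413-43313662 on the minus strand for HMGCS1, chr4:165327419-165327668 on the plus strand for MSMO1, chr7:155297628-155297877 on the plus strand for INSIG1, chr11:65111622-65111871 on the plus strand for TM7SF2 and chr22:41832855-41833104 on the plus strand for SREBF2, and for HMGCS1 the window is 1 of 2.
HMGCS1: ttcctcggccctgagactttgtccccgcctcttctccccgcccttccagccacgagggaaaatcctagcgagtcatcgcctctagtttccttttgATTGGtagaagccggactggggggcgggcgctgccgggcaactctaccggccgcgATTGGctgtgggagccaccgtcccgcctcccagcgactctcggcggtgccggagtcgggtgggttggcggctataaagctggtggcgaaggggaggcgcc
MSMO1: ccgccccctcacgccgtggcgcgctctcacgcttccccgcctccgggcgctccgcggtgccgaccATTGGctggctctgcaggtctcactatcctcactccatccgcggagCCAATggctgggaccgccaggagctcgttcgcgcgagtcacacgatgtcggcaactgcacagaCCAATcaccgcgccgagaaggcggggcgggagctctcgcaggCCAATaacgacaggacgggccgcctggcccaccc
INSIG1: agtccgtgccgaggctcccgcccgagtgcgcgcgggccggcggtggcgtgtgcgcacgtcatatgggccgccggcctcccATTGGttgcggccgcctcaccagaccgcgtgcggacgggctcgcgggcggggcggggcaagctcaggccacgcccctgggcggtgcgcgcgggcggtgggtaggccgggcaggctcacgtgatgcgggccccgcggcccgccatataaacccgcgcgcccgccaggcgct
TM7SF2: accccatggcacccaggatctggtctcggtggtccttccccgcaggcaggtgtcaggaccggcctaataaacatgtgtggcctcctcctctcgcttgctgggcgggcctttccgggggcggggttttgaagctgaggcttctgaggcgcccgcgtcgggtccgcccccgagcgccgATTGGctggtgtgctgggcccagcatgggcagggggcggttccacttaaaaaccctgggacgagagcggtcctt
SREBF2: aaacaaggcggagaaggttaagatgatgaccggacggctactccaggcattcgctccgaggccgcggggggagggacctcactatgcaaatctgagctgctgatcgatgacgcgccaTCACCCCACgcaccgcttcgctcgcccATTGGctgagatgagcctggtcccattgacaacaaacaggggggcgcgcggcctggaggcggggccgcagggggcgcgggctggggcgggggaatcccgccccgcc

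Genes of the mevalonate route came to 7, all measured, with a median log2 ratio to WT of -0.11 in Arp5 KO (-0.06 with the brightest probes), -0.08 in Arp8 KO and -0.17 on the array labelled Arp8 OE. HMGCS1, the synthase that makes HMG-CoA, had a scaled signal of 4900 units in WT, 3644 in Arp5 KO, 4228 in Arp8 KO and 2530 on the array labelled Arp8 OE. It was highest in WT and lowest on the array labelled Arp8 OE, 1.94-fold below WT, while Arp5 KO and Arp8 KO had log2 ratios of -0.43 and -0.21. Both of its probes were lower than in WT on all 3 arrays, with log2 ratios of -1.11 and -0.80 on the array labelled Arp8 OE. Of its promoter windows, the one shown above has 2 CCAAT boxes and the other 0. MVK, mevalonate kinase, had 2244 units in WT, 2011 in Arp5 KO, 2555 in Arp8 KO and 1567 on the array labelled Arp8 OE. It was 1.63-fold higher in Arp8 KO than on the array labelled Arp8 OE. In Arp5 KO its probes differed in sign, with log2 ratios to WT of 0.06 and -0.38, and on the array labelled Arp8 OE they gave -0.33 and -0.70, the brighter probe first.

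The other members of this route differed less. ACAT2, the cytosolic thiolase that makes acetoacetyl-CoA, had 16017 units in WT, 15674 in Arp5 KO, 16058 in Arp8 KO and 13023 on the array labelled Arp8 OE, and stood apart from WT on the last alone, by a log2 ratio of -0.30. PMVK, phosphomevalonate kinase, had 11741, 9562, 10967 and 12203 units in the same order and was lowest in Arp5 KO, by -0.30. The decarboxylase gene MVD had 2204, 2203, 2441 and 2343 units, and the isomerase gene IDI1 had 19690, 18289, 18587 and 18082. FDPS, which encodes farnesyl diphosphate synthase, had 58664, 56101, 55249 and 52127 units. All log2 ratios of MVD, IDI1 and FDPS to WT lay between -0.17 and 0.15. FDPS has processed pseudogenes of close sequence, whose RNA its probe might also bind.

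From squalene to cholesterol there are 11 members, with a median log2 ratio to WT of -0.22 in Arp5 KO, 0.06 in Arp8 KO and -0.46 on the array labelled Arp8 OE, the last being -0.26 with the brightest probe of each gene. All 11 were higher in Arp8 KO than on the array labelled Arp8 OE, with a median of 0.31. MSMO1, the sterol methyl oxidase, had 877 units in WT, 575 in Arp5 KO, 942 in Arp8 KO and 519 on the array labelled Arp8 OE. WT and Arp8 KO were high and the other arrays were low: the signal was 1.52-fold lower in Arp5 KO and 1.69-fold lower on the array labelled Arp8 OE than in WT, and 1.81-fold higher in Arp8 KO than on the latter. MSMO1 had the largest ratio of all members in that comparison, above 99.0% of all genes, and its promoter has 4 CCAAT boxes.

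SQLE, squalene epoxidase, a rate-limiting enzyme of the route, had 8460 units in WT, 7242 in Arp5 KO, 8734 in Arp8 KO and 5556 on the array labelled Arp8 OE. DHCR7, the reductase that ends a branch of the route, had 26389, 19641, 27660 and 17538 units in the same order. Both were close to WT in Arp8 KO and lowest on the array labelled Arp8 OE, by log2 ratios of -0.61 and -0.59, just past 1.5-fold, which is 0.585 on this scale. With the arrays scaled to the median they were under it, at -0.56 and -0.54. CYP51A1, lanosterol demethylase, had 3319 units in WT, 2590 in Arp5 KO, 2844 in Arp8 KO and 2098 on the array labelled Arp8 OE, and was lower than in WT on all 3, by log2 ratios of -0.36, -0.22 and -0.66. Its probes gave -0.67 and -0.66 on the array labelled Arp8 OE.

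FDFT1, squalene synthase, had 27156 units in WT, 23380 in Arp5 KO, 26053 in Arp8 KO and 18984 on the array labelled Arp8 OE, and LSS, which closes the sterol ring, had 1939, 1781, 1746 and 1405. Both were lowest on the last array, by log2 ratios of -0.52 and -0.46. LSS has 2 bright probes, which gave -0.26 and -0.32 there, and 2 dim ones, which gave -0.49 and -0.61, and in Arp8 KO the bright probes gave 0.15 and 0.00 and the dim ones -0.24 and -0.30. SC5D, the desaturase, had 945, 692, 983 and 804 units, and was lowest in Arp5 KO, by -0.45. Its 3 probes differed widely there, with log2 ratios of -1.01, -0.45 and -0.10, and on the array labelled Arp8 OE they were -1.24, -0.23 and 0.01. The dimmest probe, with 172 units in WT, gave the lowest values.

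TM7SF2, a sterol reductase, went the other way. Its scaled signal was 3332 units in WT, 2891 in Arp5 KO, 5612 in Arp8 KO and 5130 on the array labelled Arp8 OE. The last 2 arrays were high and the others low, with a signal 1.68-fold and 1.54-fold above WT and, in Arp5 KO, 1.94-fold below Arp8 KO. Both probes were higher than in WT in Arp8 KO, by log2 ratios of 0.68 and 0.82, and on the array labelled Arp8 OE, by 0.58 and 0.67. In the value table deposited by the authors its ratio on the latter array was under 1.5-fold. The remaining genes were EBP, the sterol isomerase, with 38401, 38768, 47326 and 40637 units in WT, Arp5 KO, Arp8 KO and on the array labelled Arp8 OE, NSDHL, a dehydrogenase of the demethylation steps, with 1033, 1002, 1175 and 1052, and HSD17B7, a ketoreductase of these steps, with 1347, 1449, 1402 and 1312. EBP was higher in Arp8 KO than in WT by a log2 ratio of 0.30, and the other ratios of these genes to WT lay between -0.04 and 0.19. HSD17B7 has a pseudogene of close sequence, which its probes might also bind.

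**Figure D4:**
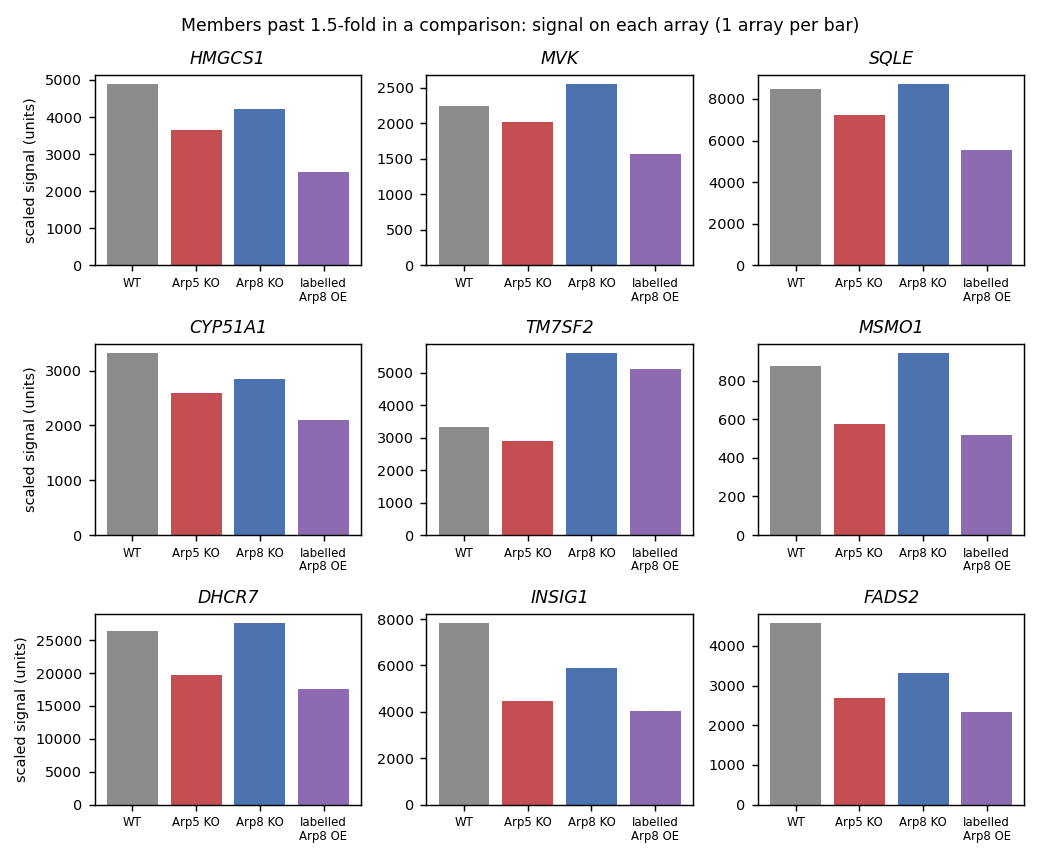
Scaled signal of the 9 members that were past 1.5-fold in any of the 5 comparisons, with a bar for each array, 1 array per group, and axes that start at 0. MSMO1 and DHCR7 are high in WT and Arp8 KO and lower on the other arrays, INSIG1 and FADS2 are highest in WT, and TM7SF2 is high in Arp8 KO and on the array labelled Arp8 OE, at 5612 and 5130 units.

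Members that regulate SREBP numbered 6, with a median log2 ratio to WT of -0.25 in Arp5 KO, 0.00 in Arp8 KO and -0.29 on the array labelled Arp8 OE. INSIG1, which retains the SREBP precursors and is itself a target of SREBP, had 7845 units in WT, 4455 in Arp5 KO, 5899 in Arp8 KO and 4037 on the array labelled Arp8 OE. WT was the highest array, and the signal was 1.76-fold, 1.33-fold and 1.94-fold lower on the others. In Arp5 KO this was the lowest ratio of all members, with 1.57% of all genes below it. It rests on 1 probe. The promoter of INSIG1, shown above, has 1 CCAAT box. INSIG2, its paralog, had 1223, 1120, 1182 and 1039 units, with log2 ratios to WT of -0.13, -0.05 and -0.24.

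SREBF2 had 9979 units in WT, 7591 in Arp5 KO, 6804 in Arp8 KO and 7109 on the array labelled Arp8 OE. It was lower than in WT on all 3 arrays, by log2 ratios of -0.39, -0.55 and -0.49, and was the lowest member in Arp8 KO. SCAP, the escort protein of SREBP, had 14196, 17006, 17308 and 15872 units in the same order and was higher than in WT on all 3, by 0.26, 0.29 and 0.16. SREBF1 had 9184, 8821, 9560 and 7788 units, and its log2 ratio to WT was -0.06 in Arp5 KO, 0.06 in Arp8 KO and -0.24 on the array labelled Arp8 OE. STARD4, a sterol carrier, had 701 units in WT, 544 in Arp5 KO, 739 in Arp8 KO and 557 on the array labelled Arp8 OE, with the same pattern of high and low arrays as MSMO1 and log2 ratios to WT of -0.37, 0.08 and -0.33. The signs of the SREBF2 and SCAP ratios were the same under each scaling.

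Of the 7 genes of fatty acid synthesis 6 were measured, and all 6 were lower than in WT in Arp5 KO and on the array labelled Arp8 OE. Their median log2 ratio to WT was -0.33 in Arp5 KO, -0.18 in Arp8 KO and -0.42 on the array labelled Arp8 OE. FADS2, the delta-6 desaturase of polyunsaturated fatty acids, had 4586 units in WT, 2681 in Arp5 KO, 3308 in Arp8 KO and 2323 on the array labelled Arp8 OE. WT was the highest array, as for INSIG1, and the signal was 1.71-fold, 1.39-fold and 1.97-fold lower on the others. Its probes gave log2 ratios of -0.58 and -0.97 in Arp5 KO and of -0.83 and -1.13 on the array labelled Arp8 OE, the dimmer probe being the lower on both. FADS1, its neighbor, which encodes the delta-5 desaturase, had 14867, 13012, 11739 and 10658 units, with log2 ratios to WT of -0.19, -0.34 and -0.48.

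FASN, fatty acid synthase, had 1336 units in WT, 963 in Arp5 KO, 1440 in Arp8 KO and 993 on the array labelled Arp8 OE. WT and Arp8 KO were high and the others low, with log2 ratios to WT of -0.47, 0.11 and -0.43. SCD, the stearoyl-CoA desaturase, had 1299, 873, 1133 and 983 units, and its ratio in Arp5 KO, -0.57, was just short of 1.5-fold, but past it when scaled to the median, at -0.62, with the percentile of bright spots, at -0.59, and in the deposited table, at -0.61. Its 3 probes gave -0.57, -0.31 and -0.17 there, and -0.40, -0.68 and -0.23 on the array labelled Arp8 OE. The value of the gene is that of the probe of middle signal, whereas the brightest probe gave -0.31 and -0.68 in these comparisons. ACACA, acetyl-CoA carboxylase, had 371, 335, 330 and 293 units, and in Arp5 KO its probes differed in sign, with log2 ratios of -0.43 and 0.13. ELOVL6, an elongase, had 3714, 3351, 3742 and 3363 units, with log2 ratios to WT of -0.15, 0.01 and -0.14.

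Of the members, 14 had several probes and 16 had 1. Among the 14, all probes were lower than in WT for 10 genes in Arp5 KO, 7 in Arp8 KO and 12 on the array labelled Arp8 OE, and all were higher for 1, 5 and 1. Probes of a gene differed in sign for 3 genes in Arp5 KO, 2 in Arp8 KO and 1 on the array labelled Arp8 OE. In Arp8 KO over the array labelled Arp8 OE, all probes were higher for all 14 genes. How often the probes of other genes agree in sign was not counted.

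**Figure D5:**
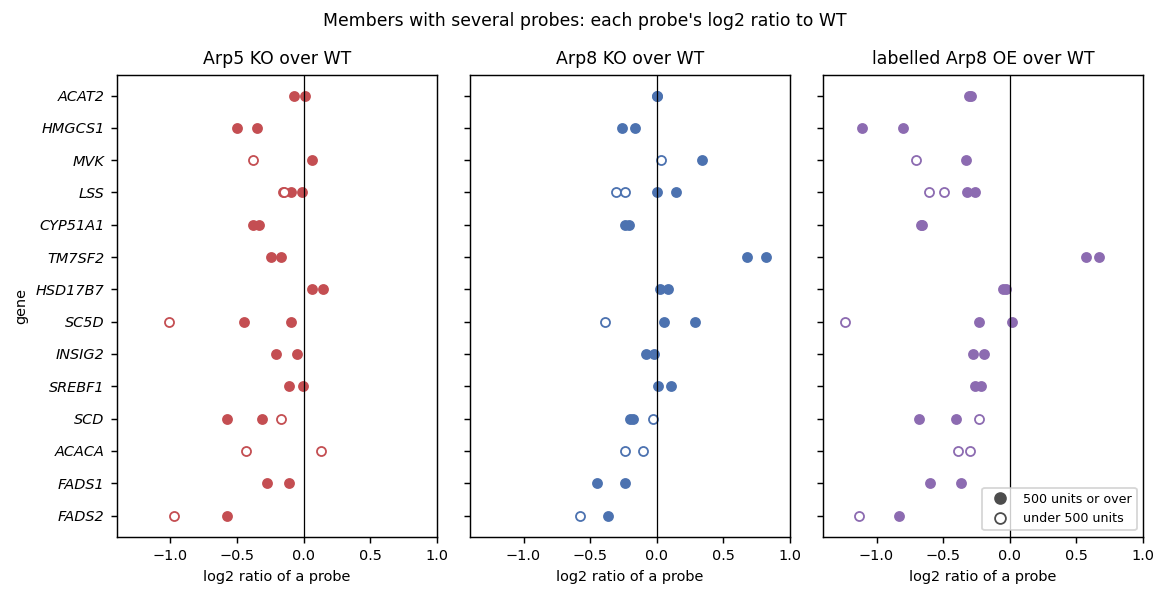
Log2 ratio to WT of each probe of the 14 members with several probes, filled where the probe had at least 500 units on all arrays and open where it did not. Probes of SC5D spread most, from -1.24 to 0.01 on the array labelled Arp8 OE, and those of SCD, MVK, LSS, HMGCS1, FADS2 and FADS1 also lie apart there, by 0.24 to 0.45.

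Other genes of lipid synthesis, a list of 20, had medians nearer to 0 than the members in Arp5 KO over WT and for the array labelled Arp8 OE over WT. Their median log2 ratio was 0.00 in Arp5 KO over WT, -0.04 in Arp8 KO and -0.03 on the array labelled Arp8 OE, but with the brightest probe of each gene that in Arp5 KO was -0.12, close to the -0.13 of the members. In the main analysis 1 of 20 was past 1.5-fold against WT, namely ACACB in Arp5 KO. In Arp8 KO over the array labelled Arp8 OE their median was 0.08. In Arp5 KO over Arp8 KO, however, it was -0.18, like that of the members, with 14 of 20 lower by any amount, and -0.12 with normexp. ACACB, an acetyl-CoA carboxylase found at mitochondria, was dim, with 42.3 units in WT, and had log2 ratios to WT of -0.59, -0.38 and -0.21, the first at the very edge of 1.5-fold and not past it with normexp. LPIN1, a phosphatidate phosphatase, had -0.58, -0.42 and -0.14, and ACSS2, an acetyl-CoA synthetase, had 0.09, 0.49 and 0.07. Of 12 genes of SREBP processing and turnover 11 were measured, and 0 of 11 were past 1.5-fold in any comparison. Their medians against WT were 0.05, 0.10 and 0.05. The largest ratios were those of CYB5B, with -0.41, -0.48 and -0.17, RNF139, a ubiquitin ligase, with 0.46, 0.31 and 0.42, and VCP, the extraction ATPase, with 0.05, 0.09 and 0.40. POR was not analysed here.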

How the data were processed

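The authors deposited the scanner output of 4 arrays on 1 slide from 1 scan, whose processed signals are intensities on a linear scale, background-subtracted by Agilent Feature Extraction 10.5.1.1 per the file headers with no scaling from array to array. A second deposited table holds intensities, with column medians of 127.5 (WT), 127.9 (Arp5 KO), 122.5 (Arp8 KO) and 119.1 (labelled Arp8 OE), found equal to the processed signals times a factor per array whose origin is not given in the sources used here.

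Here log2 processed signals were taken relative to the array's 75th percentile over all non-control spots. Spots marked as outliers were dropped and those of a probe averaged. A gene's value is the median of its probes well above background on all arrays. RefSeq accessions (GRCh38.p14, used for names and promoters; the headers name hg18) gave a gene for 26222 of 41000 probes (64.0%). The number of arrays limits the precision. Changes are counted at 2-fold and 1.5-fold, with no test. Every measured member is named with its level. From the lists of other lipid synthesis, SREBP processing and turnover, sterol efflux and storage, fatty acid oxidation and cell type markers, each gene past 1.5-fold against WT is named, or else the 3 with the largest ratios. A listed gene that is not reported here still counts in the median of its list. Members and lists were chosen with earlier results of these data known. Alternatives were other scalings, the deposited table, normexp, other filters on dim or outlier spots, other ways to join probes, a lower fold and another reference array. Steps were tested on simulated data. Python 3.11.15 was used with numpy 2.4.6, pandas 2.3.3 and matplotlib 3.10.9, and limma 3.58.1 under R 4.3.3 for normexp, on median signals with an offset of 50.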

Additional observations from a re-analysis of the deposited data

How the results depend on the processing

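No paired analysis was possible because each group has 1 array. Of 400 recomputed counts 37 moved by more than 1.5 times. Of 451 recomputed medians of lists 4 moved by more than the pooled SD between probes of a gene, which is a wide measure for a median of many genes and does not show the others to be stable. Over the alternatives with the same reference array, the members' median ran from -0.24 to -0.13 in Arp5 KO over WT, -0.01 to 0.04 in Arp8 KO over WT, -0.38 to -0.29 on the array labelled Arp8 OE over WT, 0.24 to 0.30 in Arp8 KO over that array and -0.26 to -0.16 in Arp5 KO over Arp8 KO. Of the medians 24 had another sign, all with a reported size of at most 0.05 and a recomputed size of at most 0.06. Among them were those of the members and of the SREBP regulators in Arp8 KO over WT. The cause of the moves was not tested, except that a lower threshold passes more genes.

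Counts of members lower past 1.5-fold became, at the lowest fold threshold tried, a log2 ratio of 0.32, 11 of 30 in Arp5 KO over WT (11% of all genes), 4 in Arp8 KO over WT (13.7%), 16 on the array labelled Arp8 OE over WT (13%) and 9 in Arp5 KO over Arp8 KO (11.2%), and 11 were higher in Arp8 KO over the array labelled Arp8 OE (11.2%). Scaling to the median gave 4 lower and 1 past 2-fold in Arp5 KO over Arp8 KO. On the array labelled Arp8 OE over WT, 1 member was past 2-fold with the percentile of bright spots, 2 with the deposited table and 1 with normexp, and 0 were higher past 1.5-fold with the deposited table. The lowest level was on WT for 1 member with the percentile of bright spots, with quantile normalization and with the deposited table. The highest was on Arp5 KO for 0 when scaled to the median and 3 with the brightest probe, and on the array labelled Arp8 OE for 0 with quantile normalization.

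Against the array labelled Arp8 OE in place of WT, the members' median in Arp8 KO was 0.26. The median of the genes from squalene to cholesterol was -0.26 on the array labelled Arp8 OE over WT with the brightest probe, and 0.44 in Arp8 KO over that array with the mean of the probes. That of fatty acid genes in the latter comparison was 0.31 with the brightest probe.

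Of 56 measured genes of the 4 other lists, 1 was lower past 1.5-fold in Arp5 KO over WT. This became 2 under median scaling, the percentile of bright spots, quantile normalization and the deposited table, and 0 with normexp. Normexp also gave 0 lower in Arp8 KO over WT and in Arp8 KO over the array labelled Arp8 OE, and 0 higher in Arp5 KO over Arp8 KO, where median scaling gave 1 lower. With no filter on dim probes 1 was higher in Arp8 KO over the array labelled Arp8 OE. At the lowest threshold, 5 were lower and 5 higher in Arp5 KO over WT, 5 and 8 in Arp8 KO over WT, 3 and 5 on the array labelled Arp8 OE over WT, 3 and 6 in Arp8 KO over that array, and 8 and 4 in Arp5 KO over Arp8 KO. Of all genes 11% and 13%, 13.7% and 15%, 13% and 14.9%, 11.4% and 11.2%, and 11.2% and 12.6% were past it in these comparisons.

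Of single member ratios to WT that were past 1.5-fold, none changed sign under any alternative. Under another scaling or the deposited table the sign changed for EBP in Arp5 KO, ACAT2 and ELOVL6 in Arp8 KO, and HSD17B7, NSDHL and PMVK on the array labelled Arp8 OE, all with sizes of at most 0.06. Over all alternatives it changed also for ACACA, ACAT2, MVD and MVK in Arp5 KO, LSS and SC5D in Arp8 KO, and SC5D on the array labelled Arp8 OE, with sizes of up to 0.16, 0.15 and 0.23 in these comparisons. Member calls at 1.5-fold that ended are given in the report. Calls that were gained, besides SCD in Arp5 KO, were FDFT1 on the array labelled Arp8 OE over WT with quantile normalization and normexp, SCD there with the brightest probe, and in Arp5 KO over Arp8 KO FASN when scaled to the median and with the deposited table and SC5D when scaled to the median.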

Other observations

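Genes of sterol efflux and storage, some of them targets of the liver X receptors that respond to surplus sterol, were 14, all measured. Their median log2 ratio to WT was -0.05 in Arp5 KO, 0.16 in Arp8 KO and 0.06 on the array labelled Arp8 OE. MYLIP, a ubiquitin ligase of lipoprotein receptors, had a scaled signal of 385 units in WT, 659 in Arp5 KO, 626 in Arp8 KO and 516 on the array labelled Arp8 OE. WT was the lowest array, and the log2 ratios were 0.78, 0.70 and 0.42. The transporter gene ABCA1 had 158, 157, 207 and 216 units, with log2 ratios of -0.01, 0.39 and 0.45.

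Of 12 genes of fatty acid oxidation 11 were measured, with median log2 ratios to WT of -0.02, -0.14 and 0.02 in Arp5 KO, in Arp8 KO and on the array labelled Arp8 OE, that in Arp8 KO being -0.05 with the mean of the probes and with the brightest probe. ACADVL, the dehydrogenase of very long chains, had 33492, 45668, 51502 and 57696 units and was higher than in WT on all 3 arrays, by log2 ratios of 0.45, 0.62 and 0.78. CPT1A, which brings fatty acids into mitochondria, had 406, 343, 300 and 369 units and was lower on all 3, by -0.24, -0.44 and -0.14. HADHB had log2 ratios of 0.23, 0.15 and 0.16. ACADL was not well above background on all arrays.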
